A study of Mus musculus with 12 samples.

Results

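RNA-binding proteins that choose exons were examined in ribosome-bound RNA of the mouse retina at postnatal day 9 (P9, 6 libraries) and day 3 (P3, 6 libraries). The genes were taken by symbol: every hnRNP gene, the numbered SR protein genes, and the PTB, RBFOX, CELF, NOVA, ELAVL, MBNL, ESRP and MSI families, with 2 processed pseudogene rows left out. This gave 56 genes on 59 of the 53090 rows, and 55 of the 56 passed the filter on low counts, Esrp2 being the exception. All mice were C57BL/6 and received tamoxifen on postnatal days 1 and 2, so P9 and P3 differ in age and in the time since tamoxifen. The RNA was recovered by immunoprecipitation through an HA tag, and the labels give the cell type as retinal pericytes. Which promoter or Cre line restricts the tag is left unsaid in the labels, and RNA from before the immunoprecipitation was not analysed here. Nothing in the labels says whether the libraries came from separate animals or litters, so each p-value refers to the spread among these libraries, which may be technical.

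Splicing is carried out by the spliceosome, and which exons it includes is set by proteins that bind the pre-mRNA near them. SR proteins mostly promote the use of an exon and hnRNPs often oppose it, and both are abundant in nearly every cell. Other families are restricted: RBFOX, NOVA, neuronal CELF and neuronal ELAVL proteins drive exon choices of neurons, MBNL proteins drive the change from fetal to adult isoforms, ESRP proteins act in epithelia, and MSI proteins are known from neural progenitors and photoreceptors. PTBP1 holds back neuronal exons in non-neuronal cells and progenitors, and its relative PTBP2 does so in young neurons.

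The recovered RNA was not that of pericytes alone. The summed level of 17 pericyte markers ran from 2926 to 6578 CPM (read counts as a share of the TMM-scaled library total) at P9, against 404 to 1429 CPM at P3. Rod markers summed to 8913 to 18087 CPM at P9 and 1521 to 3384 CPM at P3, and the mean sum of bipolar cell markers was 6.23-fold higher at P9. The mean sum of retinal progenitor markers was 5.03-fold lower, that of proliferation markers 12.3-fold lower and that of lens markers 19.3-fold lower at P9. The lens sum was 58.2-fold lower without P9 replicate 2, which held 2664 CPM of lens markers, against 126 to 398 CPM in the other P9 libraries. Abundant genes weigh most in such sums. The median log2 fold change of the single genes was -2.31 for progenitor, -2.28 for proliferation and -4.08 for lens markers. No gene of these lists was at 0 in all libraries. The splicing regulators are expressed by many of these cells, and the part of the changing mixture in their levels was not tested; fewer cells of a type and less RNA per cell cannot be told apart in such libraries. Library totals lay between 26839599 and 37776172 counts, so that 1 CPM stands for 25.8 to 38.5 counts. P3 replicates 4 and 5 stood apart from the other P3 libraries, with proliferation marker sums of 1490 and 1481 CPM, against 3282 to 5994 CPM in the other 4, and with the highest pericyte, rod and pan-neuronal marker sums of their age. Levels of different genes are not compared, since the files give no transcript lengths. Where the log2 difference of a pair of genes is given, only its change between the ages is read, not its size or sign at 1 age.

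Of the 55 regulators tested, 23 fell at P9 (41.8%), 9 rose (16.4%) and 23 did not pass the test (edgeR quasi-likelihood, Benjamini-Hochberg over 18638 rows, adjusted p under 0.05). Over all rows tested, 25.6% fell and 26.1% rose. The median log2 fold change of P9 over P3 was -0.17 for the regulators and -0.0018 for all rows. In 24 regulators (43.6%) the 6 P9 libraries lay entirely outside the range of the 6 P3 libraries, 17 below and 7 above, and all 24 were also called; the share over all rows was 31.7%. The changes were small in size. Among genes of at least 10 CPM, 2 of 53 regulators (3.77%) changed 2-fold or more and were called, against 14.4% of 10963 rows, and the median absolute log2 fold change was 0.27 for the regulators and 0.36 for all.

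General and neuron-enriched regulators were counted apart. Of the 12 neuron-enriched genes (Rbfox1, Rbfox3, Celf3 to Celf6, Nova1, Nova2, Ptbp2 and Elavl2 to Elavl4), 5 rose (41.7%), 2 fell (16.7%) and 5 did not pass, with a median log2 fold change of 0.18. At a threshold of 0.01, 3 of them rose and 1 fell. Of the other 44, 43 were tested: 4 rose (9.3%), 21 fell (48.8%) and 18 did not pass, with a median of -0.19. Over all rows tested, 26.1% rose and 25.6% fell. The difference between both lists was not tested.

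**Figure D1:**
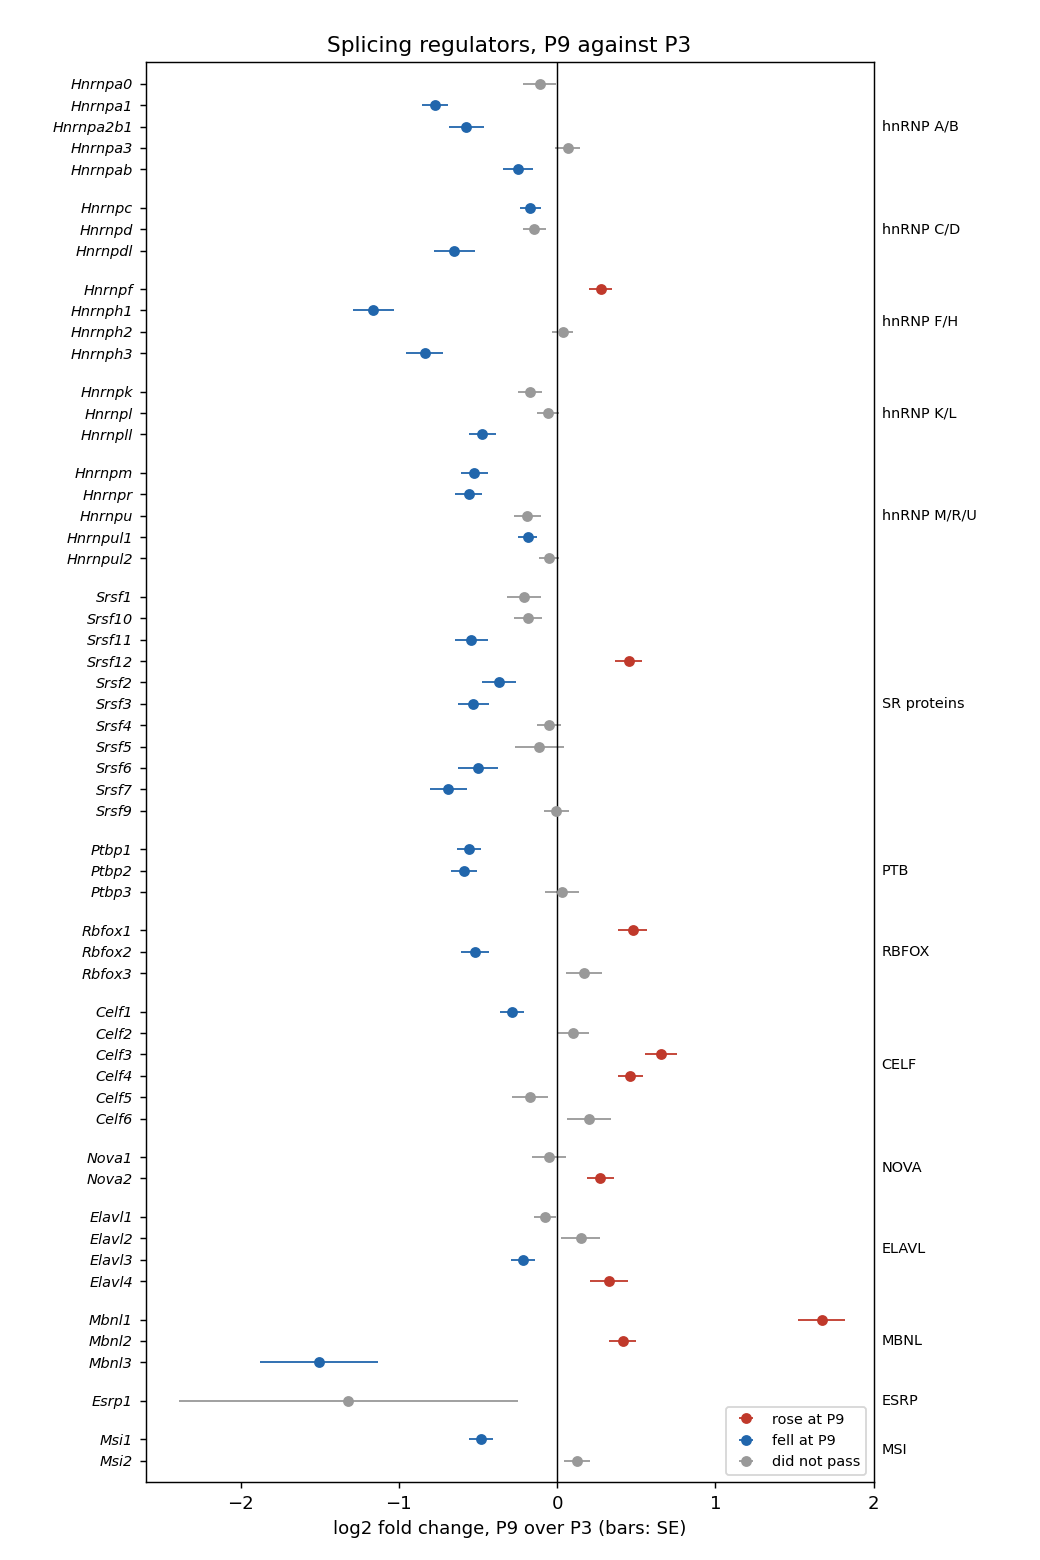
Log2 fold change of P9 over P3 for each of the 55 regulators tested, in families from top to bottom; points are the edgeR estimates, bars their SE, and the colour gives the call at an adjusted p under 0.05. Most hnRNP and SR genes lie left of 0, Celf3, Celf4, Rbfox1 and Srsf12 lie right of it, and Mbnl1 lies farthest to the right at 1.67.

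Among the 20 hnRNP genes, 11 fell (55%), 1 rose (5%) and 8 did not pass, against 25.6% fallen and 26.1% risen over all rows. Summed CPM was lowest at P9 relative to P3 in the F/H group (0.56 times) and the A/B group (0.71 times). Hnrnph1, which encodes an abundant binder of G-rich runs in exons and introns (chr11:50375257-50386528, GRCm38.p6), had a lowest, median and highest level of 874, 901 and 1064 CPM at P9, against 1598, 2119 and 2735 CPM at P3. Every P9 library was below every P3 library, and the log2 fold change was -1.16 ± 0.13 (SE, n = 6 libraries per age, edgeR adjusted p = 3.71e-06). Its relative Hnrnph3 (chr10:63014664-63023980) was also lower in every P9 library, at 97.1, 108 and 112 CPM, against 155, 180 and 253 CPM at P3 (log2 fold change -0.84 ± 0.12, edgeR adjusted p = 3.04e-05). The family did not move as one. Hnrnpf, the third G-run binder (chr6:117900340-117925622), had 287, 301 and 322 CPM at P9, against 218, 249 and 278 CPM at P3, and was the only hnRNP gene that rose (0.28 ± 0.07, edgeR adjusted p = 0.00503). Hnrnph2, the X-linked relative of Hnrnph1, had 155, 169 and 184 CPM at P9 and 153, 165 and 172 CPM at P3 and did not pass (0.03 ± 0.06, adjusted p = 0.679).

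In the A/B group, whose proteins coat nascent RNA and mostly favour exon skipping, 3 of 5 genes fell (60%). Over all rows tested, 25.6% fell. Hnrnpa1 (chr15:103239943-103246698) had a lowest, median and highest level of 389, 462 and 487 CPM at P9, against 687, 764 and 832 CPM at P3. There was no overlap between the ages, and the log2 fold change was -0.77 ± 0.08 (edgeR adjusted p = 2.04e-06), the smallest adjusted p among the regulators that fell. Hnrnpa2b1, a core partner of Hnrnpa1 in hnRNP particles (chr6:51460434-51470048), had 1354, 1553 and 1773 CPM at P9, against 1899, 2281 and 2969 CPM at P3, again without overlap (-0.57 ± 0.11, edgeR adjusted p = 0.000598). Hnrnpab fell by 0.25 on the log2 scale with overlapping libraries (190, 208 and 268 CPM at P9, 220, 259 and 284 CPM at P3; adjusted p = 0.0387), and this call was lost on leaving out any of 8 single libraries. Hnrnpa3 had 363, 421 and 461 CPM at P9 and 355, 400 and 453 CPM at P3 (0.07 ± 0.08, adjusted p = 0.514), so that its ranges nearly coincided. Hnrnpa0 did not pass either, with 83.6 to 115 CPM at P9 and 84.6 to 129 CPM at P3.

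The upstream 250 bases of Hnrnpa1 are shown because this gene had the smallest adjusted p among those that fell. They stand on the plus strand at chr15:103240147-103240396 (RefSeq, GRCm38.p6), before a start that lies inside the gene's interval, and read 5′ to 3′, with capitals on GGGCGG (SP box) and CCAAT on either strand.
Hnrnpa1: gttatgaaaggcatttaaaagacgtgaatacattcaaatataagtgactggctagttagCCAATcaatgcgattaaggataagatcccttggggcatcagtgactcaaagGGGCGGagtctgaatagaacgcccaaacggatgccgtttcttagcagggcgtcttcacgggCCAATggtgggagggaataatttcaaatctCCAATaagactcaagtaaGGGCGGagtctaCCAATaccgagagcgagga
The window held 4 CCAAT and 2 GGGCGG matches.

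In the C/D group, Hnrnpdl, which is close to Hnrnpd in sequence, had 394, 446 and 494 CPM at P9, against 513, 740 and 820 CPM at P3 (log2 fold change -0.65 ± 0.13, edgeR adjusted p = 0.000613). All P9 libraries were lower, and P3 replicates 4 and 5, at 513 and 517 CPM, were nearest to them. Hnrnpc, which binds uridine tracts and keeps cryptic exons out, had 193, 208 and 211 CPM at P9 and 206, 227 and 251 CPM at P3 (-0.17 ± 0.07, adjusted p = 0.0466), a call that leaving out any of 9 libraries ended. Hnrnpd, known also for binding AU-rich mRNA ends, had 242, 258 and 265 CPM at P9 and 249, 280 and 336 CPM at P3 and did not pass (-0.14 ± 0.07, adjusted p = 0.114).

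In the K/L group 1 of 3 genes fell (33.3%), against 25.6% of all rows tested. Hnrnpll, known from the switch of exons of a surface phosphatase in lymphocytes, had 64.4, 78.6 and 83.4 CPM at P9, against 98.9, 101 and 129 CPM at P3, without overlap (-0.47 ± 0.08, edgeR adjusted p = 0.000278). Hnrnpk, a binder of cytosine-rich RNA, had 628, 702 and 755 CPM at P9 and 682, 799 and 826 CPM at P3 and did not pass (-0.17 ± 0.08, adjusted p = 0.0665), and Hnrnpl ranged over 508 to 585 CPM at P9 and 508 to 634 CPM at P3.

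Of the M/R/U group, Hnrnpr, which is also found in axons of motor neurons, had 212, 238 and 256 CPM at P9, against 309, 339 and 427 CPM at P3 (-0.56 ± 0.08, edgeR adjusted p = 5.84e-05). Hnrnpm, which favours mesenchymal over epithelial exon choices, had 208, 230 and 242 CPM at P9, against 287, 310 and 380 CPM at P3 (-0.52 ± 0.08, edgeR adjusted p = 0.000115). Neither gene had a P9 library within the P3 range. Hnrnpul1 differed less, with 199, 206 and 219 CPM at P9 and 224, 233 and 253 CPM at P3, also without overlap (-0.19 ± 0.06, edgeR adjusted p = 0.02). The edgeR adjusted p was 0.0625 without P3 replicate 4 and 0.0945 without P3 replicates 4 and 5. These replicates were its highest P3 libraries, so leaving them out lowers the P3 level by construction. Hnrnpu, a nuclear scaffold protein, did not pass (-0.19 ± 0.08, adjusted p = 0.0739); its counts lie on a pair of rows with the same values in all 12 libraries, and each row had 474, 548 and 604 CPM at P9 and 564, 601 and 751 CPM at P3. Hnrnpul2 had 294 to 306 CPM at P9 and 269 to 338 CPM at P3, the narrowest spread of any regulator at P9 (coefficient of variation 1.58%).

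**Figure D2:**
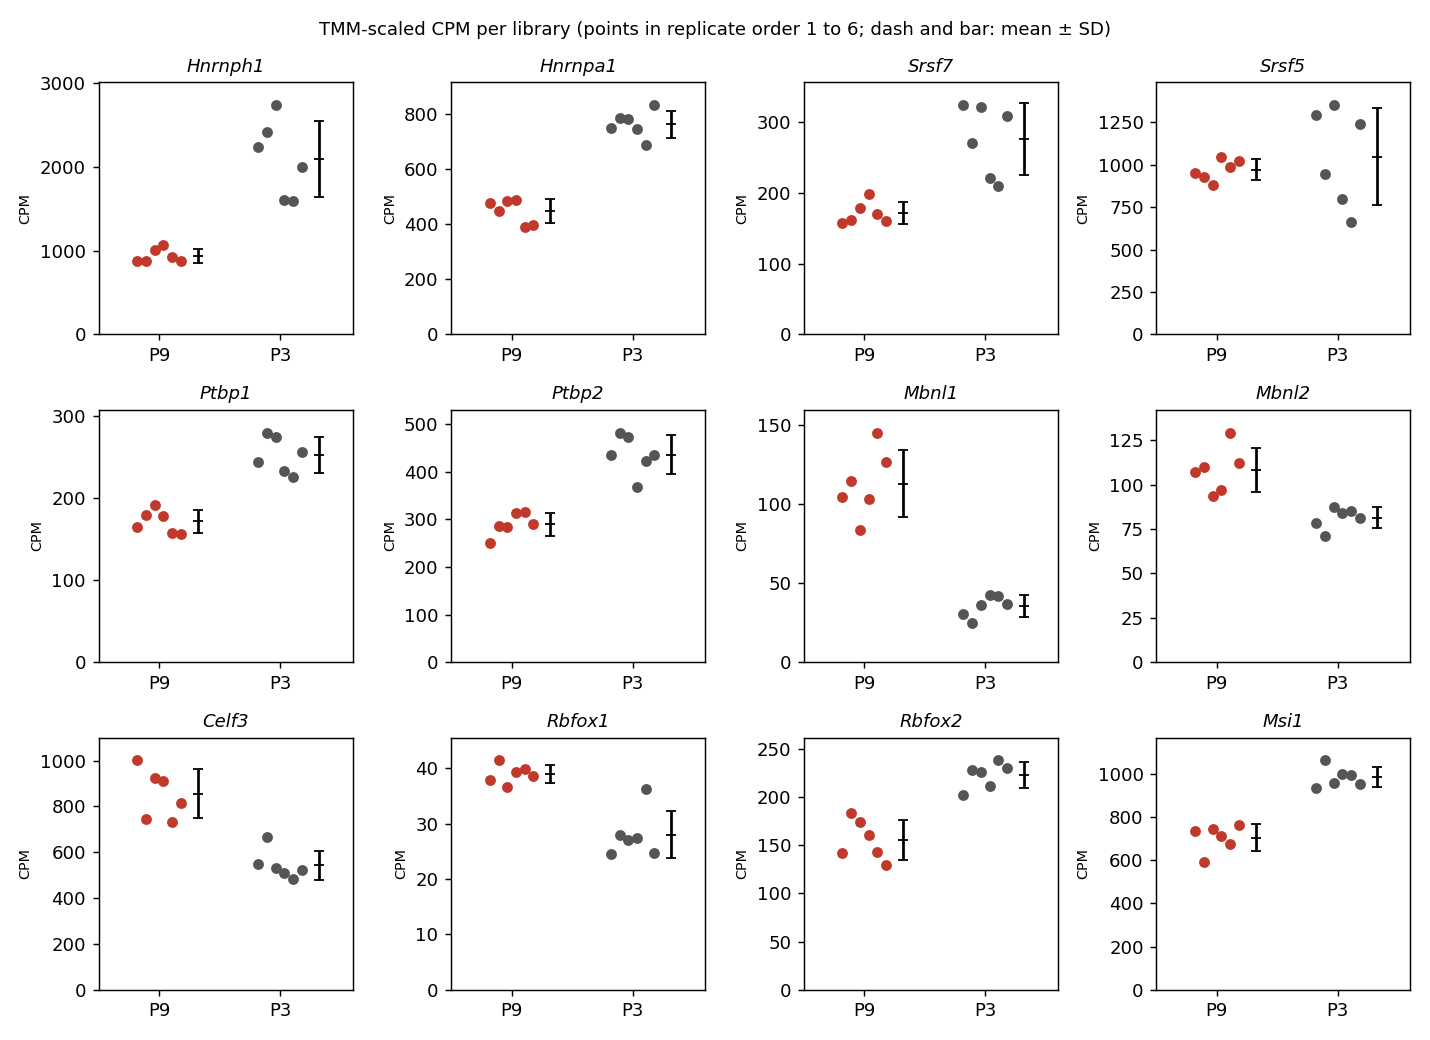
TMM-scaled CPM of 12 regulators in each library, P9 left and P3 right; points are libraries in replicate order and the dash with its bar is the mean ± SD of 6 libraries. P9 lies wholly below P3 for Hnrnph1, Hnrnpa1, Srsf7, Ptbp1, Ptbp2, Rbfox2 and Msi1 and wholly above it for Mbnl1, Mbnl2, Celf3 and Rbfox1, while Srsf5 spreads from 659 to 1349 CPM within P3.

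Of the 11 SR protein genes, 5 fell (45.5%), 1 rose (9.09%) and 5 did not pass, against 25.6% fallen and 26.1% risen over all rows. Srsf7, an SR protein that also adapts mRNA for export, had 157, 166 and 199 CPM at P9, against 209, 289 and 323 CPM at P3 (log2 fold change -0.69 ± 0.11, edgeR adjusted p = 0.000155). Srsf3, the smallest SR protein and a close relative of SRSF7, had 288, 312 and 346 CPM at P9, against 366, 479 and 514 CPM at P3 (-0.53 ± 0.10, edgeR adjusted p = 0.00033). Both were without overlap, and Srsf11 was too, at 250 to 343 CPM at P9 and 364 to 513 CPM at P3 (adjusted p = 0.000478). Srsf6 fell by 0.50 and Srsf2, which recognises exonic enhancers, by 0.37 on the log2 scale (adjusted p = 0.00377 and 0.0112), each with P9 and P3 libraries that overlapped. Srsf12 was the exception: it had 21.5, 24.3 and 26.7 CPM at P9, against 15.9, 18.1 and 19.8 CPM at P3, all P9 libraries being higher (0.45 ± 0.08, edgeR adjusted p = 0.000366).

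Some SR genes that did not pass were split within P3. Srsf5 had 878, 969 and 1045 CPM at P9 and 659, 1092 and 1349 CPM at P3 (-0.11 ± 0.15, adjusted p = 0.568), and its coefficient of variation was 6.39% at P9 and 27.4% at P3. P3 replicates 4 and 5 held 799 and 659 CPM of it, less than any P9 library, while P3 replicates 1, 3 and 6 held 1240 to 1349 CPM, more than any P9 library. P3 replicates 4 and 5 held the lowest P3 levels of Srsf5, Srsf1 and Srsf10, so leaving them out raises the P3 level by construction. Without them the edgeR adjusted p of Srsf5 was 0.0171, that of Srsf1 0.00717 and that of Srsf10 0.00891, each with a lower level at P9. These values are therefore no separate evidence of a fall. Srsf1, the founding SR protein, had 458, 524 and 569 CPM per row at P9 and 489, 610 and 739 CPM per row at P3 over a pair of identical rows, and Srsf10, a splicing repressor when dephosphorylated, had 193 to 224 CPM at P9 and 196 to 272 CPM at P3. Srsf4 and Srsf9 had log2 fold changes of -0.05 ± 0.08 and 0.00 ± 0.08 and did not pass.

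Both P3 replicates 4 and 5 lay below the other 4 P3 libraries in 18 of the 55 regulators (32.7%) and above them in 8 (14.5%), against 16.5% and 16.4% of all rows tested. The 18 included 7 of the 11 SR genes (Srsf1, Srsf2, Srsf3, Srsf5, Srsf6, Srsf7 and Srsf10), and the rest were Hnrnpa1, Hnrnpa2b1, Hnrnpa3, Hnrnpdl, Hnrnph1, Hnrnpl, Hnrnpr, Ptbp1, Ptbp2, Celf3 and Celf5. The 8 were Hnrnpa0, Hnrnpc, Hnrnpul1, Celf2, Celf4, Celf6, Elavl3 and Mbnl1. The comparison was chosen after the levels had been seen and was not tested. Summed SR gene levels were 3899 and 3758 CPM in P3 replicates 4 and 5, inside the P9 range of 3616 to 4180 CPM, and 4969 to 5949 CPM in the other P3 libraries. The same 2 libraries had the lowest proliferation marker sums of their age, given above; the part of dividing cells in the SR and hnRNP levels was not tested. Leaving out both libraries gave 24 regulators that fell and 9 that rose, but the genes that fell were not the same set. Hnrnpab, Hnrnpc, Hnrnpul1 and Elavl3 lost the call, and Hnrnpu, Srsf1, Srsf5, Srsf10 and Celf5 gained it. No share over all rows is given here for this setting.

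**Figure D3:**
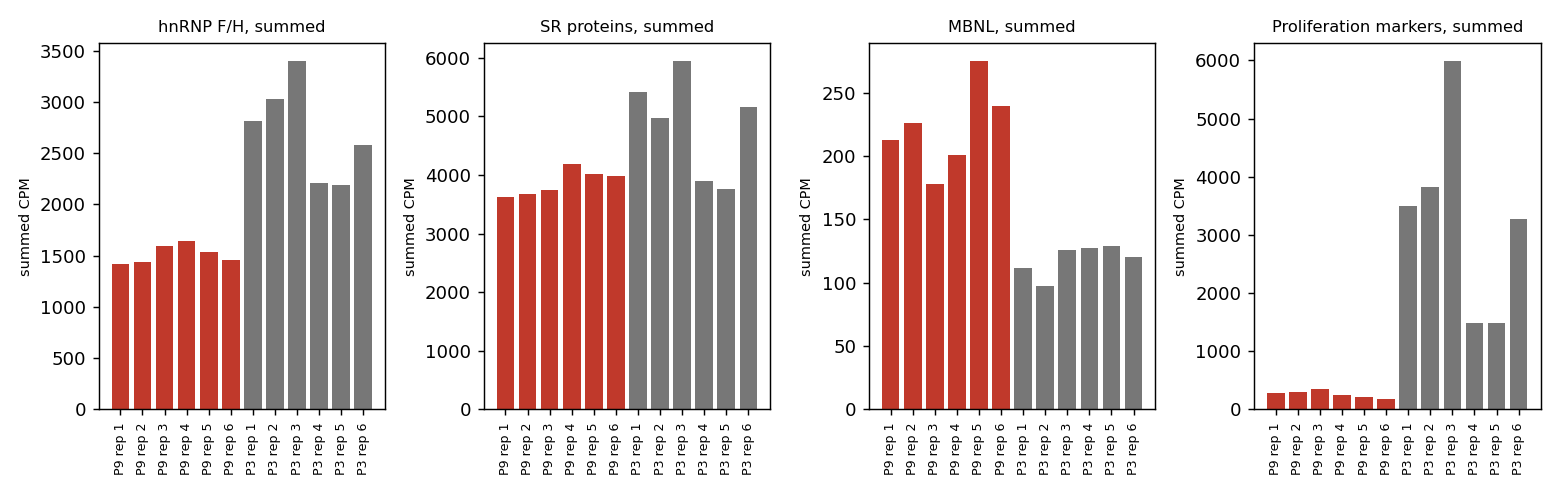
Summed CPM of the 4 hnRNP F/H genes, the 11 SR protein genes, the 3 MBNL genes and 15 proliferation markers in each library, P9 in red on the left and P3 in grey on the right. P3 replicates 4 and 5 are the lowest P3 bars for F/H, SR and proliferation sums, and the MBNL sum is higher in every P9 library.

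Both Ptbp1 and Ptbp2 fell by about the same amount. Ptbp1 (chr10:79854432-79864435) had a lowest, median and highest level of 156, 172 and 192 CPM at P9, against 225, 250 and 279 CPM at P3 (log2 fold change -0.56 ± 0.08, edgeR adjusted p = 3.26e-05). Ptbp2 (chr3:119718741-119784647) had 250, 289 and 315 CPM at P9, against 369, 436 and 482 CPM at P3 (-0.59 ± 0.08, edgeR adjusted p = 2.84e-05). Neither gene had overlapping ages. PTBP1 is known to keep PTBP2 low by making its mRNA skip an exon, and Ptbp1 is known to give way to Ptbp2 as neurons form. Here the log2 difference of Ptbp2 minus Ptbp1 within a library averaged 0.76 ± 0.17 at P9 and 0.79 ± 0.08 at P3 (SD, n = 6 each), and the ages overlapped. Ptbp3 had 38.3, 45.6 and 57.2 CPM at P9 and 37.9, 44.3 and 53.0 CPM at P3 and did not pass (0.03 ± 0.11, adjusted p = 0.818).

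The upstream 250 bases of Ptbp1 and Ptbp2 are shown because these paralogs moved together. They are at chr10:79854182-79854431 on the plus strand and at chr3:119783389-119783638 on the minus strand (RefSeq, GRCm38.p6), 5′ to 3′ in the direction of the gene, with capitals on GGGCGG and CCAAT on either strand (a match on the other strand reads CCGCCC or ATTGG). The Ptbp2 start shown lies inside the gene's interval.
Ptbp1: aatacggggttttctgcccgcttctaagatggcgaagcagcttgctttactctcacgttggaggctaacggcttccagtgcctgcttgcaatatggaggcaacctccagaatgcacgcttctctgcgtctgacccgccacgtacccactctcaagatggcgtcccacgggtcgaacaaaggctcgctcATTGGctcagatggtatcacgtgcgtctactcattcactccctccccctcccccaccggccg
Ptbp2: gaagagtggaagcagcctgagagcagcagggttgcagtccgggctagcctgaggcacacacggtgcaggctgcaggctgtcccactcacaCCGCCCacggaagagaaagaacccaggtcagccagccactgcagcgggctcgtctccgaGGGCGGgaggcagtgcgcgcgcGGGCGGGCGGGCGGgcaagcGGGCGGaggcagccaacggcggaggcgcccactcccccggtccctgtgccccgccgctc
The Ptbp2 window held 6 GGGCGG matches and no CCAAT match, and the Ptbp1 window held 1 CCAAT match and no GGGCGG match. The GC content was 57.6% for Ptbp1 and 72.4% for Ptbp2.

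The RBFOX genes moved in opposite directions. Rbfox1, the form of neurons, heart and muscle, had 36.6, 38.9 and 41.4 CPM at P9, against 24.5, 27.2 and 36.2 CPM at P3 (log2 fold change 0.48 ± 0.09, edgeR adjusted p = 0.000543); the highest P3 value is that of replicate 5. Rbfox2, which is expressed widely, had 130, 152 and 184 CPM at P9, against 202, 228 and 238 CPM at P3 (-0.52 ± 0.09, edgeR adjusted p = 0.000183). All P9 libraries were above P3 for Rbfox1 and below it for Rbfox2, and the log2 difference of Rbfox1 minus Rbfox2 shifted by 1.01, running from -2.25 to -1.75 at P9 and from -3.21 to -2.72 at P3. Rbfox3, whose protein is the neuronal nuclear antigen NeuN, had 12.4, 15.4 and 16.5 CPM at P9 and 11.5, 12.5 and 16.0 CPM at P3 and did not pass (0.17 ± 0.11, adjusted p = 0.225).

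In the CELF family, whose proteins bind GU-rich RNA, the neuronal members Celf3 and Celf4 rose and the widely expressed Celf1 fell. Celf3 (chr3:94478285-94496786) had 734, 863 and 1001 CPM at P9, against 483, 526 and 666 CPM at P3 (log2 fold change 0.66 ± 0.10, edgeR adjusted p = 6.93e-05). Celf4, known from synapse function and seizure models, had 172, 187 and 199 CPM at P9, against 123, 130 and 162 CPM at P3 (0.46 ± 0.08, edgeR adjusted p = 0.000164). For both, every P9 library was above every P3 library. Celf1 had 157, 165 and 186 CPM per row at P9 and 187, 200 and 235 CPM per row at P3, over a pair of identical rows (-0.29 ± 0.08, edgeR adjusted p = 0.00554). Celf2, found in brain, heart and lymphocytes, had 305, 343 and 373 CPM at P9 and 243, 328 and 375 CPM at P3 (0.10 ± 0.10, adjusted p = 0.415). Celf5 and Celf6 had log2 fold changes of -0.17 ± 0.11 and 0.20 ± 0.14 and did not pass. Without P3 replicates 4 and 5, the lowest P3 libraries for this gene, Celf5 was called lower at P9 (edgeR adjusted p = 0.0421). Leaving out low P3 libraries raises the P3 level, so this call is no separate evidence of a fall. The sum over the family was higher in every P9 library, at 1542 to 1778 CPM, against 1249 to 1473 CPM at P3, but this rests on Celf3: without it the sums were 759 to 852 CPM at P9 and 699 to 865 CPM at P3. The difference of Celf4 minus Celf1 shifted by 0.75 on the log2 scale. Of 10 pan-neuronal markers, 6 rose, 1 fell and 3 did not pass, with a median log2 fold change of 0.57, and their sum was 2869 to 3605 CPM at P9 and 1421 to 2233 CPM at P3 (1.80-fold); the part of neuronal RNA in the rise of Celf3 and Celf4 was not tested.

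NOVA and neuronal ELAVL genes shifted little. Nova2, a neuronal regulator of synaptic exons, had 47.3, 51.1 and 53.6 CPM at P9 and 36.1, 42.3 and 50.1 CPM at P3, with overlap (0.27 ± 0.08, edgeR adjusted p = 0.0128), and Nova1 had 50.6, 60.4 and 72.3 CPM at P9 and 49.3, 62.6 and 74.7 CPM at P3 (-0.05 ± 0.11, adjusted p = 0.733). The ELAVL proteins bind U- and AU-rich RNA and act on splicing and stability. Elavl4 had 22.5, 28.5 and 33.9 CPM at P9 and 19.7, 20.9 and 26.7 CPM at P3 (0.33 ± 0.12, adjusted p = 0.0313), and leaving out any of 6 libraries ended this call. Elavl3 had 119, 127 and 140 CPM at P9 and 124, 149 and 172 CPM at P3 (-0.21 ± 0.08, adjusted p = 0.0317), and leaving out any of 7 single libraries ended this call. The ubiquitous Elavl1 (104 to 119 CPM at P9, 105 to 130 CPM at P3) and Elavl2 (15.2 to 19.5 CPM at P9, 11.9 to 18.2 CPM at P3) did not pass. No gene of either family had ages without overlap.

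The largest rise among the 55 was that of Mbnl1. It encodes the muscleblind protein whose loss of function underlies the splicing defects of myotonic dystrophy (chr3:60472559-60629750), and had 83.4, 110 and 145 CPM at P9, against 24.8, 36.7 and 42.3 CPM at P3. The lowest P9 library was above the highest P3 library, and the log2 fold change was 1.67 ± 0.15 (3.19-fold, edgeR adjusted p = 4.04e-07), the smallest adjusted p of all 55. Mbnl2, the form most used in brain, had 93.8, 109 and 129 CPM at P9, against 70.9, 82.5 and 87.4 CPM at P3, also without overlap (0.41 ± 0.08, edgeR adjusted p = 0.000743). Mbnl1 rose more than Mbnl2 in size: the log2 difference of Mbnl2 minus Mbnl1 shifted by -1.26 (mean ± SD -0.05 ± 0.13 at P9 and 1.22 ± 0.20 at P3). Mbnl3, which is known from proliferating muscle precursors and placenta, was low at both ages and moved the other way, with a median of 0.681 CPM at P9 and 2.02 CPM at P3 and overlapping libraries (-1.50 ± 0.37, edgeR adjusted p = 0.00342). The mean sum of pericyte markers was 5.26-fold higher and that of rod markers 5.95-fold higher at P9, and the part of these cells in the Mbnl1 level was not tested.

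Both upstream windows that RefSeq gives for Mbnl1 are shown because this gene changed most and its starts differ in composition. They lie on the plus strand at chr3:60472580-60472829 and chr3:60500929-60501178 (GRCm38.p6), 5′ to 3′, with capitals on the SP box and the CCAAT box as before and on the TATA box (TATAAA), on either strand. The TATA match of the first window overlaps another on the other strand.
Mbnl1 upstream start: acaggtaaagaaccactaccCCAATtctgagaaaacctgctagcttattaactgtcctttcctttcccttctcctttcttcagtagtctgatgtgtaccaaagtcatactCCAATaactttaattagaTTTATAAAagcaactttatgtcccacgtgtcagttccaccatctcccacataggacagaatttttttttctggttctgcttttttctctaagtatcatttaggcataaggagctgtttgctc
Mbnl1 downstream start: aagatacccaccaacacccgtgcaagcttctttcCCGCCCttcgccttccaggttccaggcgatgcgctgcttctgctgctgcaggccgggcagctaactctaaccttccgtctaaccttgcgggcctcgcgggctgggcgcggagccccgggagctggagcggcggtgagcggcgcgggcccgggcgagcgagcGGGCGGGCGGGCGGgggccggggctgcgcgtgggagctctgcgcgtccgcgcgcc
The first window had 1 CpG and a GC content of 38.0%, and the second had 33 CpG, a GC content of 73.6% and 4 GGGCGG matches. Counts per gene do not show which start was used.

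Over all regulators, RefSeq windows of the 250 bases before a start were found for 48 of the 56 genes (87 windows, up to 7 per gene). GGGCGG, searched on both strands, was in 64.4% of these windows and in 32.7% of all 32851 windows, and CCAAT in 49.4% and 33.9%. TGACGTCA, the palindromic cyclic AMP response element, was in 8.05% of the regulators' windows and in 1.55% of all, from only 3 genes with several windows. The TAATCC letters of CRX, a photoreceptor factor, were in 3.45% and 6.25%. The median number of CpG was 18 in the regulators' windows and 6 in all. These are descriptions of letters, and windows of 1 gene can overlap.

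The MSI and ESRP genes close the list. Msi1 (chr5:115359059-115455698), a marker of neural progenitors that photoreceptors also use, had 592, 725 and 764 CPM at P9, against 936, 978 and 1064 CPM at P3, without overlap (-0.48 ± 0.08, edgeR adjusted p = 8.75e-05). Msi2 had 230, 253 and 299 CPM at P9 and 206, 240 and 262 CPM at P3 and did not pass (0.13 ± 0.08, adjusted p = 0.221). The log2 difference of Msi2 minus Msi1 was higher in every P9 library, at -1.47 ± 0.24 at P9 and -2.08 ± 0.10 at P3. Retinal progenitor markers fell with Msi1, all 14 of 14, to a sum of 438 to 664 CPM at P9, against 2242 to 2995 CPM at P3, and their part in it was not tested.

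The epithelial regulators Esrp1 and Esrp2 were near 0 in most libraries. Esrp1 had 0.272 to 1.57 CPM at P9 and 0 to 8.99 CPM at P3 and did not pass (-1.32 ± 1.07, adjusted p = 0.324), its estimate turning to 0.21 without P3 replicate 1 and to 1.20 with limma-voom, and Esrp2 had 0 to 0.345 CPM at P9 and 0 to 7.14 CPM at P3. The high P3 values were those of replicate 1 (8.99 and 7.14 CPM) and replicate 3 (3.18 and 2.56 CPM). Of 8 epithelial genes looked at after these values were seen, the surface epithelium keratins Krt5 and Krt14 had the same pair of libraries on top: Krt5 had at most 0.186 CPM in any P9 library, against 552 CPM in P3 replicate 1 and 43.7 CPM in P3 replicate 3, and Krt14 at most 0.159 CPM at P9, against 51.5 and 21.5 CPM. Krt12, Cdh1, Grhl2, Epcam and Krt8 were highest in P3 replicate 1, but except for Krt8 replicate 3 was not second among the P3 libraries. Krt18, found in other epithelia too, rose at P9 (log2 fold change 0.73, adjusted p = 0.0112). The part of epithelial RNA in the ESRP levels was not tested.

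**Figure D4:**
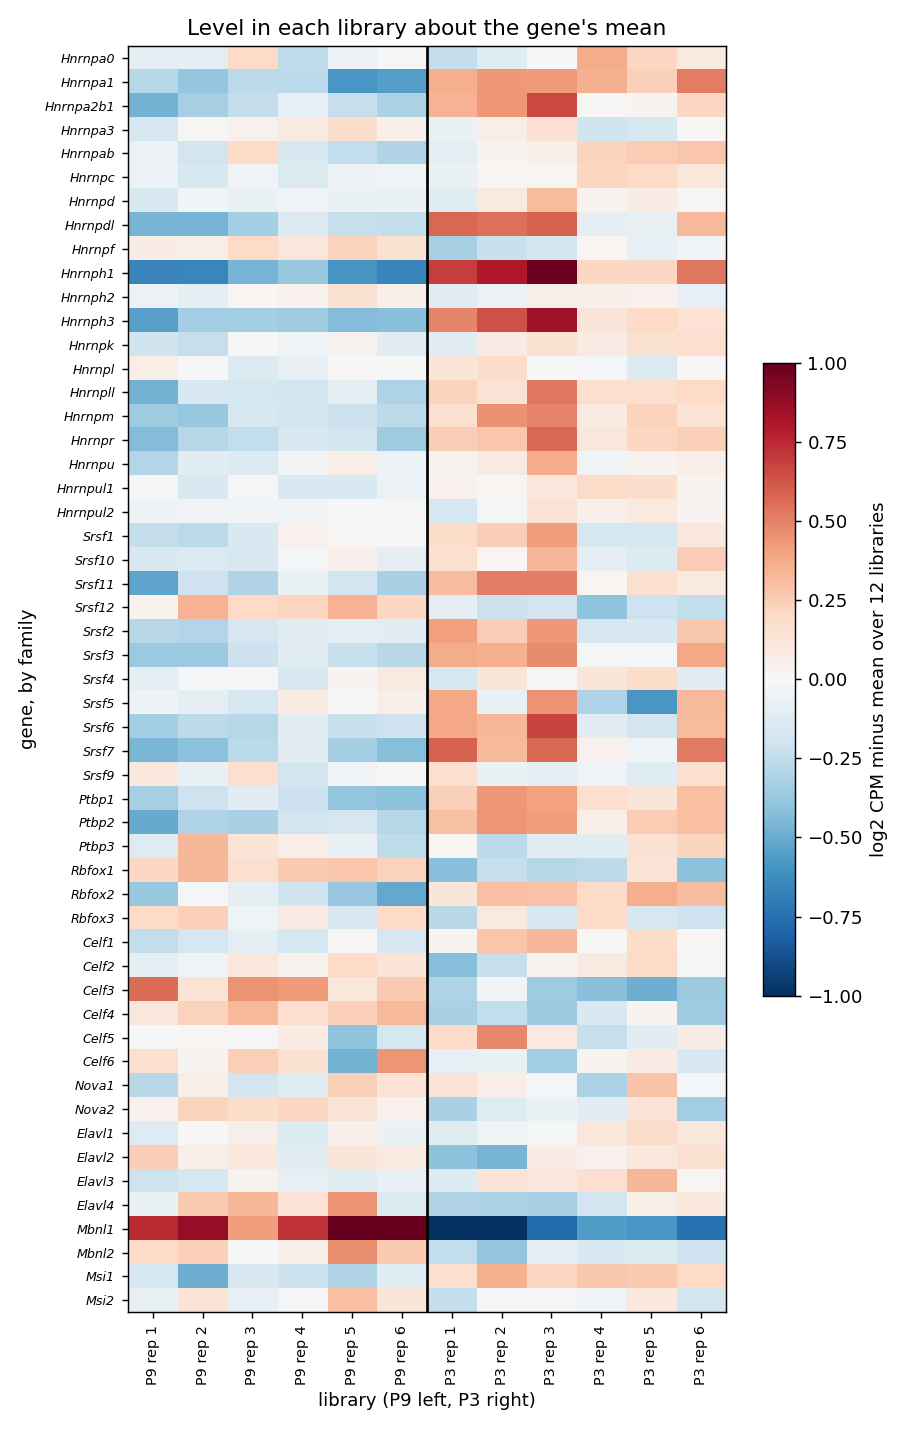
Log2 CPM of 53 regulators in each library minus the gene's mean over the 12 libraries, genes in rows by family, P9 on the left and P3 on the right; Esrp1, Esrp2 and Mbnl3 are left out for low levels, and the colours stop at 1 and -1. Most hnRNP and SR rows are lower on average at P9 than at P3, many of them only faintly, and Mbnl1 runs the other way with the strongest colours. Some hnRNP and SR rows, such as Srsf5, are lower in P3 replicates 4 and 5 than in the other P3 libraries, and others, such as Hnrnpc, are higher there.

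The genes that work with these regulators were counted against the same shares over all rows, 25.6% fallen and 26.1% risen. Of 40 spliceosome core genes, 21 fell (52.5%), 3 rose (7.5%) and 16 did not pass, with a median log2 fold change of -0.24. Those with the smallest adjusted p were Sf1, which recognises the branch point (117, 123 and 130 CPM at P9, 155, 172 and 199 CPM at P3; log2 fold change -0.52 ± 0.07, edgeR adjusted p = 4.3e-05), Dhx15, a helicase that takes the spliceosome apart (-0.52 ± 0.08, 5.11e-05), and Sf3b1, a branch-site subunit of U2 snRNP (-0.50 ± 0.08, 7.41e-05). Txnl4a (0.59 ± 0.17, adjusted p = 0.00965), Snrpb (0.31 ± 0.08, 0.00521) and Snrpd3 (0.28 ± 0.10, 0.0297), a U5 protein and a pair of Sm ring proteins, were the 3 that rose, each with overlapping ages.

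Of 50 other splicing regulators, 31 fell (62%), 7 rose (14%) and 12 did not pass, with a median of -0.33. Rbm38, which p53 induces, had 2.06, 4.07 and 4.41 CPM at P9, against 11.9, 14.0 and 18.2 CPM at P3 (-2.03 ± 0.19, edgeR adjusted p = 9.4e-07), and its muscle-expressed relative Rbm24 had 7.83, 13.1 and 16.3 CPM at P9, against 33.4, 36.7 and 51.4 CPM at P3 (-1.68 ± 0.17, edgeR adjusted p = 1.69e-06). Both fell without overlap, as did Taf15 (-0.72 ± 0.09, 1.12e-05). Among those that rose, the poly-C binder Pcbp3 had 391, 400 and 458 CPM at P9, against 213, 235 and 275 CPM at P3 (0.79 ± 0.08, edgeR adjusted p = 1.93e-06). Pcbp2 (0.45 ± 0.10, adjusted p = 0.00135) and the neuronal microexon factor Srrm3 (0.43 ± 0.10, 0.00185) rose as well.

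Of 11 kinases that phosphorylate SR proteins or the polymerase tail, 6 fell (54.5%), 1 rose (9.09%) and 4 did not pass, with a median of -0.27. Srpk1, the kinase that sends SR proteins to the nucleus, had 120, 132 and 155 CPM at P9, against 168, 219 and 289 CPM at P3 (-0.70 ± 0.12, edgeR adjusted p = 0.000223). Clk2 (-0.55 ± 0.10, 0.000239) and Cdk12 (-0.87 ± 0.20, 0.0022) fell too, Cdk12 with overlapping ages. Srpk3, a muscle kinase, was the 1 that rose, at 3.12 to 5.46 CPM at P9 and 0.783 to 3.53 CPM at P3 (1.08 ± 0.31, adjusted p = 0.00917).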

How the data were processed

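Retinal RNA bound to HA-tagged ribosomes was sequenced at P9 and P3, with 6 libraries per age. The authors deposited expected counts from RSEM for every gene, not scaled to depth, and 15.9% of them are not whole. The submitters' processing notes also name STAR, Trim Galore, FastQC and limma, and the build mm10. Their versions, the annotation and any use of strand in the counting were not given in the sources used here. Reads shared by near-identical genes or pseudogenes, and reads of the 24 regulators whose interval overlaps another RefSeq gene, are less certain; 37 of 56 regulators had counts that were not whole in some library.

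Expected counts were rounded. Rows with low counts were removed by filterByExpr of edgeR 4.0.16 (34452 rows, leaving 18638). TMM factors scaled the libraries, and P9 was tested against P3 by the quasi-likelihood test in R 4.3.3. The code was run on simulated counts in which few genes changed, each by more than most regulators here. That check does not bear on small changes or on the scaling when many rows change. P-values were adjusted by Benjamini-Hochberg over all rows tested, with calls at 0.05. The SE is the absolute log2 fold change divided by the square root of F. Alternatives were other scalings, filters, DESeq2 1.42.0, limma-voom, a robust fit, a threshold of 0.01, summed rows of a symbol, and libraries left out.

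Srsf1, Celf1 and Hnrnpu each lie on 2 Ensembl IDs with the same values in every library. Each was counted once, with the level of 1 row; the summed levels are 1033 and 1197 CPM for Srsf1, 338 and 412 CPM for Celf1 and 1091 and 1242 CPM for Hnrnpu (means at P9 and P3). Coordinates and upstream sequences are those of RefSeq on GRCm38.p6, matched by symbol for all 56 regulators (coordinates) and 48 (upstream windows).

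The regulators and all gene lists were chosen with earlier results of these data known. In each family, full statistics go to up to 3 called genes of smallest adjusted p and to the gene of highest mean CPM that was not called; of the other splicing lists, to the 3 called genes of smallest adjusted p in each direction. Replicates were numbered in deposition order. The labels of P9 replicates 5 and 6 carry crossed sample names, which no comparison of the ages depends on.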

Additional observations from a re-analysis of the deposited data

Results flagged for a closer look

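In each group of 6 libraries, a library was singled out where its gap to the nearest other exceeded Dixon's critical share of the group's range. This held for 9 of 112 groups. For independent groups of normally distributed values, chance gives about 1 in 20. The groups here share the same 12 libraries, so the 9 cannot be measured against that rate. P3 replicate 3 was the highest of its age for Hnrnpll (129 CPM, next 104), Hnrnpr (427 CPM, next 348) and Hnrnpu (751 CPM, next 616). It also had the highest proliferation marker sum, and the part of dividing cells in these levels was not tested. P3 replicate 1 was the lowest for Hnrnpk (682 CPM, next 778) and the highest for Esrp1 (8.99 CPM, next 3.18) and Esrp2 (7.14 CPM, next 2.56). P3 replicate 5 was the highest for Rbfox1 (36.2 CPM, next 28.0), and P3 replicate 2 for Celf3 (666 CPM, next 550). P9 replicate 1 was the lowest for Hnrnpd (242 CPM, next 258).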

How the results depend on the processing

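Over 23 alternatives (22 for Mbnl3 and Esrp1, which a mean of at least 10 CPM removes), 25 of the 32 called regulators kept their call and direction under each that was run, and 7 lost the call under some (Hnrnpab, Hnrnpc, Hnrnpul1, Srsf2, Nova2, Elavl3 and Elavl4). Of the 23 not called, 17 stayed so and 6 were called under some (Hnrnpk, Hnrnpu, Srsf1, Srsf5, Srsf10 and Celf5). No called gene reversed its direction, while the estimate of 7 genes not called crossed 0 (Hnrnpa0, Hnrnpa3, Srsf4, Srsf9, Ptbp3, Nova1 and Esrp1, the last from -1.85 to 1.20). The regulators that fell numbered 18 to 25 and those that rose 7 to 9. Over all rows, those that fell numbered 3584 to 5062 and those that rose 3479 to 5113. Among neuron-enriched regulators, 1 fell in place of 2 without the low-count filter and at a threshold of 0.01, where 3 rose in place of 5; with 1 library left out, 1 to 2 fell. These changes rest on Elavl3, Elavl4 and Nova2. Without P3 replicates 4 and 5, the 2 that fell were Ptbp2 and Celf5. With a mean of at least 10 CPM, 0 SR protein kinases rose in place of 1, since Srpk3 was filtered out. No paired analysis was possible because no replicate number in the labels is shared between the ages. Depth limits Mbnl3, Esrp1 and Esrp2, and counts per gene show no isoforms. The lens marker sum without P9 replicate 2 and the CELF sum without Celf3 were chosen after seeing the data.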
